A study of Mus musculus with 6 samples.

Results

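The 10 genes described here encode subunits of the nucleosome remodelling and deacetylase complex, NuRD, in sorted erythroid progenitors of Bcl11a knockout and control mice. They were chosen by name: Chd3, Chd4, Mta1, Mta2, Mta3, Hdac1, Hdac2, Mbd3, Gatad2a and Gatad2b. They are 10 of the 18193 genes that the array annotation names by a single symbol, and 25 of the 45037 probe sets read them. A probe set is a group of short probes for a transcript, summarised as a single intensity. The cells carried the transferrin receptor CD71 and the erythroid antigen Ter119 and came from the bone marrow of 6-week-old female mice. The 3 knockout mice were Bcl11a fl/fl with EpoR-Cre, so that Cre recombinase driven by the erythropoietin receptor gene deletes Bcl11a in the red cell lineage. The 3 control mice were Bcl11a +/+, and no Cre is named for them. The effect of Cre therefore cannot be told apart from that of Bcl11a, and the strain background was not given in the sources used here. Each mouse gave 1 Affymetrix array.

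NuRD joins an ATP-driven nucleosome remodeller to histone deacetylases and so helps close chromatin at repressed genes. Chd3 and Chd4 are alternative ATPases, Hdac1 and Hdac2 the deacetylases, and the Mta proteins the scaffold that holds the deacetylases. Mbd3, a methyl-CpG-binding-domain protein, takes the place that its paralogue Mbd2 takes in other copies of the complex, and Gatad2a or Gatad2b bridges it to the ATPase. In red cells NuRD is known as a partner of BCL11A and of FOG1 (Zfpm1), and in human erythroid cells several of its subunits are needed to keep the fetal globin genes silent. The comparison thus shows the transcript levels of a corepressor in cells where a factor that uses it had been targeted.

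By their brightest probe sets, the 10 genes had log2 changes between -0.25 and 0.15 in knockout relative to control mice. None of the 25 probe sets passed the test (limma, Benjamini-Hochberg adjusted p threshold of 0.05, lowest adjusted p = 0.319), where 0.147% of all probe sets passed. At a share that low, 0 of 25 does not set the members apart from other genes. At an unadjusted p under 0.05 there was 1 of 25, a probe set of Mta3, against 12.4% of all probe sets. With an intensity trend and robust moderation of the variances, 0 of 25 passed where 3.21% of all probe sets did, and 3 of 25 had an unadjusted p under 0.05 against 14.4% of all. The log2 changes of the 25 lay between -0.25 and 0.28. In the same comparison the embryonic globin Hbb-y had a log2 change of 7.78.

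On the 6 arrays, median intensities lay between 67.5 and 70.9, and any 2 arrays of a group correlated at r = 0.981 to 0.986 over the log2 values, against 0.980 to 0.983 for arrays of different groups; probe sets are not independent replicates. The targeted gene Bcl11a was read by 7 probe sets, whose log2 changes lay between -0.40 and 0.32 (lowest adjusted p = 0.304). Their place relative to the deleted part was not given in the sources used here; they check no label. The summed intensity of 7 erythroid markers was 88466 to 97977 in knockout and 71192 to 86333 in control mice. Of these 7, 5 had log2 changes above 0: Gata1 at 0.70, Klf1 at 0.65, Hemgn at 0.43, Tfrc at 0.38 and Slc4a1 at 0.21. The other 2, Epor and Alas2, lay below at -0.14 and -0.060. The 8 neutrophil markers summed to 165863 to 173350.0 in knockout and 179524 to 180351 in control mice. Of these 8, 7 had log2 changes below 0 and 1 above. The dimmest of them still averaged 4353 in knockout and 4282 in control mice. S100a8 was the brightest probe set on the arrays in both groups, at 38723 in knockout and 39933 in control mice. The 6 B cell markers summed to 7429 to 10000.4 in knockout and 10629.5 to 12524 in control mice, and all 6 had log2 changes below 0, as did all 4 basophil and mast cell markers, whose sums were 3727 to 5287 in knockout and 5802 to 6174 in control mice. The 7 macrophage markers summed to 9663 to 10216 in knockout and 8496 to 9639 in control mice. Of these 7, 5 had log2 changes above 0, and 2, C1qb and Cd68, lay below at -0.14 and -0.050. Csf1r, the brightest of them, averaged 4744 in knockout and 3897 in control mice. Most of the difference between the sums of the groups came from Csf1r. The sums overlapped for 5 platelet markers (1413 to 2419 in knockout, 1608 to 2011 in control mice) and 4 T and NK cell markers (2259 to 2746 in knockout, 2279 to 2833 in control mice). No marker of any list was at the lowest listed value of 1. NuRD subunits are expressed in all these cells, and the part of other cells in the small differences below was not tested. In such a bulk sample fewer cells of a type and less RNA per cell cannot be told apart.

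Because Bcl11a encodes a DNA-binding repressor, the sequence before the start sites of the members was read from RefSeq (GRCm38.p6), and 7 of the 10 genes had an entry, in 10 windows of 250 bases. The windows of Chd4 overlap each other. The first of the 2 windows of Chd4 is shown, with those of Mta1 and Mta2. In Chd4 and Mta1 the brightest probe sets separated the groups, as 19.5% of all probe sets did, and Mta2 is a paralogue of Mta1. The windows are written 5′ to 3′, and capitals mark GGGCGG or its reverse complement CCGCCC, the GC box bound by Sp1-type factors.
Chd4, chr6:125095731-125095980, strand +: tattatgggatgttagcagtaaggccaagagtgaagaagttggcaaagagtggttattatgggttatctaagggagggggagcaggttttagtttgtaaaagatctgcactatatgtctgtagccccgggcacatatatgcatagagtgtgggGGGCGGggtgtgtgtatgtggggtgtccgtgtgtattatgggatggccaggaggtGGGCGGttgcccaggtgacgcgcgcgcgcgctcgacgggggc
Mta1, chr12:113098028-113098277, strand +: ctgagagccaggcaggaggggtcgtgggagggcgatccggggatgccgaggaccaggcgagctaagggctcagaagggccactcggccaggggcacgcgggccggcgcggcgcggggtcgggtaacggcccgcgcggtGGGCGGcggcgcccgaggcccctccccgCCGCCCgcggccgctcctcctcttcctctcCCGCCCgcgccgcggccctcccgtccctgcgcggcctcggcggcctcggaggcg
Mta2, chr19:8941670-8941919, strand +: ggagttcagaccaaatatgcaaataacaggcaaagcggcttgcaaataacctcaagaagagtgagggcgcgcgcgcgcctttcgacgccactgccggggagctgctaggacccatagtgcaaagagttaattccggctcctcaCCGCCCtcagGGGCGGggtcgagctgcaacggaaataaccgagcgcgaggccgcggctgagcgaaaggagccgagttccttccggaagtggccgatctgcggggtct
All 10 member windows held GGGCGG on either strand, against 32.7% of the 32851 windows in the table. None held TGACCA, the letters that BCL11A binds in the human fetal globin promoters, which 11.4% of all windows held on either strand. GATAA, which fits the core of a GATA factor site, was in 3 of 10 member windows and in 22.6% of all, and CCAAT in 5 of 10 and in 33.8% of all. The member windows had 12 to 39 CpG dinucleotides (median 19), and all windows a median of 6. At least 12 CpG were found in 33.5% of all windows, and GGGCGG was not counted among those windows alone. The Mta1 window had 39 CpG and 80.8% G and C, the Chd4 window printed above had 12 CpG and 54.0%, and the other Chd4 window had 23 CpG and 67.6%. These matches describe the letters of the windows and show no binding.

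The brightest probe sets of both ATPases differed little between the groups. Chd4, the main remodelling ATPase of NuRD, had intensities of 1861, 2116 and 2006 in the 3 knockout mice, against 2153, 2206 and 2149.9 in the 3 control mice, by its brightest probe set. All knockout values lay below all control values, although the highest of them and the lowest control value were close. The means were 1994 ± 128 in knockout and 2169.5 ± 31.3 in control mice (SD, n = 3 each), a log2 change of -0.12 ± 0.098 (SE, limma, adjusted p = 0.661). The other 2 probe sets of Chd4 had log2 changes of -0.14 and -0.12, with groups that overlapped, so that all 3 readings of the gene gave the same size and sign. Chd3, the alternative ATPase, had 490.02, 464 and 385 in knockout mice and 468, 441 and 406 in control mice. The knockout mice spanned both sides of the control range, and the log2 change was 0.020 ± 0.13 (SE, limma, adjusted p = 0.968). Without knockout mouse 1 the changes were -0.074 for Chd4 and -0.049 for Chd3. Chd4 stayed below Chd3, but Chd3 changed sign and most of the gap rested on that mouse. The 95% intervals of the changes reached from -0.36 to 0.11 for Chd4 and from -0.29 to 0.33 for Chd3.

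**Figure D1:**
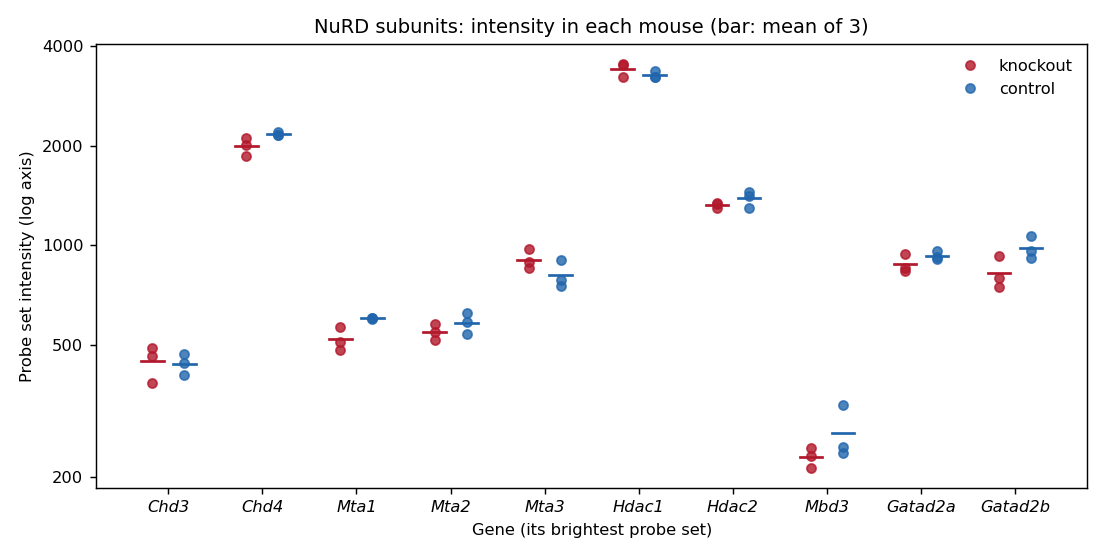
Intensity of the brightest probe set of each of the 10 NuRD genes in each mouse, on a log axis, with knockout mice in red left of control mice in blue and bars for the means of 3. The groups lie close together for every gene and are separate for Chd4 and Mta1 only; heights of different genes come from different probes and do not compare amounts of RNA.

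The 3 scaffold genes did not all lean the same way. Mta1, the founding member of the family, had 566, 484 and 512 in knockout mice, against 598, 604 and 602 in control mice. The control mice were within a few units of each other and all knockout mice lay below them. The means were 521 ± 42.0 and 601 ± 3.14 (SD, n = 3 each), a log2 change of -0.20 ± 0.10 (SE, limma, adjusted p = 0.476). The second probe set of Mta1 was among the dimmest on the arrays, at percentile 11.1 in knockout and 9.98 in control mice, and had a log2 change of 0.019. Mta2, the paralogue tied to fetal globin silencing in human cells, had 517, 546 and 578 in knockout mice and 539.85, 627 and 588 in control mice. Its groups overlapped, and the log2 change was -0.092 ± 0.11 (SE, limma, adjusted p = 0.773).

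Mta3 was the scaffold gene with higher readings in the knockout. Its brightest probe set had 853, 889 and 975 in knockout mice and 904, 752 and 784 in control mice, which overlapped through control mouse 1. The means were 906 ± 63.1 and 813 ± 79.8, a log2 change of 0.15 ± 0.12 (SE, limma, adjusted p = 0.641). The ending _s_at of this probe set marks probes that can match more than a single transcript. Probe set 1421402_at read Mta3 at 639.85, 643 and 629 in knockout mice, against 508, 509 and 550.02 in control mice. All knockout values lay above all control values, and both groups were tight. The means were 637 ± 7.29 and 523 ± 23.8 (SD, n = 3 each), 22.0% higher, a log2 change of 0.28 ± 0.093 (SE, limma, adjusted p = 0.319). This was the probe set that differed most among the 25, and its unadjusted 95% interval, 1.04-fold to 1.42-fold, left out no change. Changes at least this large, in either direction, occurred in 26.6% of all probe sets. The third probe set of Mta3 had a log2 change of 0.079, so that all 3 lay above 0.

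The brightest probe sets of both deacetylases differed by less than 0.1 log2 units between the groups. Hdac1, a catalytic subunit that NuRD shares with the Sin3 and CoREST complexes, was read by a single probe set at percentile 96.3 in knockout and 96.4 in control mice. It had 3223, 3510.3 and 3532 in knockout mice and 3359, 3239 and 3241 in control mice. The groups overlapped, and the log2 change was 0.060 ± 0.095 (SE, limma, adjusted p = 0.849), with a 95% interval from 0.889-fold to 1.22-fold. Hdac2, its close paralogue, had 1336, 1347 and 1298 in knockout mice and 1298, 1408 and 1454 in control mice by the brightest probe set, also of the _s_at kind. The change was -0.061 ± 0.097 (SE, limma, adjusted p = 0.847), with a 95% interval from 0.815-fold to 1.13-fold. The next probe set of Hdac2 leaned the other way, with 879, 942 and 903 in knockout mice and 754, 948 and 802 in control mice and a log2 change of 0.13, and the dimmest had 0.0075. No direction can be given for Hdac2 from these.

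Most of the lower reading of Mbd3 in knockout mice rested on a single control mouse. The gene had 231, 213 and 243 in knockout mice and 246, 329 and 236 in control mice. Control mouse 2 stood above the other 5 mice, which lay close together. The log2 change of -0.21 ± 0.15 (SE, limma, adjusted p = 0.607) came to -0.072 without that mouse.

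The bridging subunits gave different readings from different probe sets. Gatad2a was read by 5 probe sets with log2 changes between -0.085 and 0.18. The brightest had 835, 856 and 941 in knockout mice and 961, 921 and 908 in control mice, a change of -0.085 ± 0.099 (SE, limma, adjusted p = 0.776). Its overlap came from knockout mouse 3, which lay within the control range. The second brightest was almost the same on all 6 arrays, with 791, 774 and 779 in knockout mice and 771, 792 and 779 in control mice. Gatad2b was read by 5 probe sets with log2 changes between -0.25 and 0.19. The brightest had 750.06, 927 and 798 in knockout mice and 1067, 913 and 964 in control mice, a change of -0.25 ± 0.12 (SE, limma, adjusted p = 0.477). This was the lowest change of the 25, and the groups met through knockout mouse 2 and control mouse 2. The second brightest, at 808, 841 and 817 in knockout mice and 752, 855 and 865 in control mice, had a change of -0.00015. The other 3, in order of brightness, had changes of -0.12, 0.19 and -0.22, so that 1 of the 5 lay above 0.

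**Figure D2:**
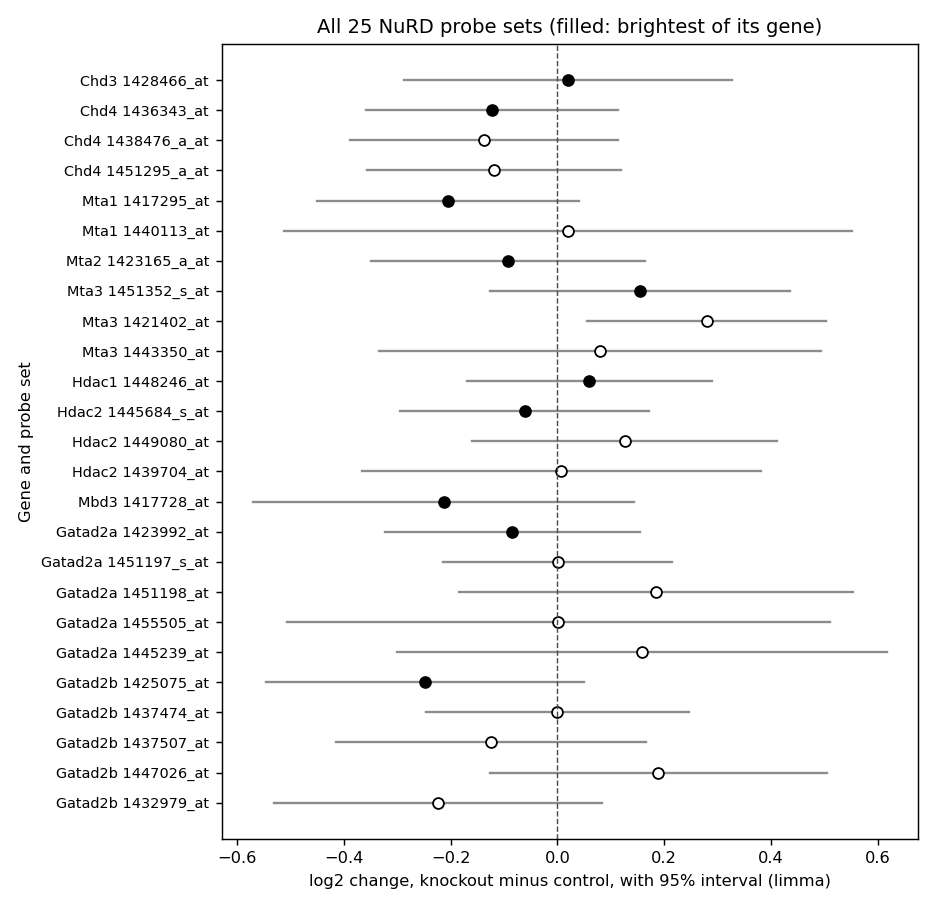
Log2 change, knockout minus control, of all 25 probe sets with limma's 95% intervals (x axis), by gene and probe set (y axis); filled points are the brightest probe set of a gene. Of the 25 intervals 24 include 0, the exception being Mta3 1421402_at. Probe sets of Mta1, Hdac2, Gatad2a and Gatad2b lie on both sides of 0.

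As a set, the 25 probe sets were read beside all probe sets. Groups did not overlap in 3 of the 25 probe sets, those of Chd4, Mta1 and Mta3 named above, while they did not overlap in 19.5% of all probe sets. Among the brighter 50%, groups did not overlap in 6345 of 22518 probe sets, and 3520 had an unadjusted p under 0.05 (limma). Full separation of 3 against 3 mice always gives a two-sided exact permutation p of 0.1, the smallest possible, so that p adds nothing to the separation. The median size of the log2 change was 0.12 over the 25, 0.16 over all probe sets and 0.14 over the brighter 50% of them, to which 23 of the 25 belong. The median residual SD between mice was 0.12 on the log2 scale for the 25, against 0.21 for all probe sets and 0.14 for the brighter 50%. Of the 25 changes, 13 were above 0 and 12 below, and 48.8% of all probe sets were above 0. Taking each gene by its brightest probe set, 3 lay above 0 and 7 below, with a median of -0.089 against -0.0064 over all probe sets. This median was -0.031 when all probe sets of a gene were averaged. Of the 6 genes with more than 1 probe set, Chd4 and Mta3 had the same sign in all of theirs.

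Paralogues were compared by the difference of their log2 values within each array, since the intensities of 2 probe sets depend on their probes and only a shift of that difference between groups can be read. By the brightest probe sets, none of the 6 pairs separated the groups. Mta3 minus Mta1 shifted most. It was 0.58, 0.86 and 0.91 in knockout mice, against 0.58, 0.31 and 0.37 in control mice. Control mouse 1 reached the lowest knockout mouse, and the other 2 control mice lay below all knockout mice. The means were 0.78 ± 0.18 and 0.42 ± 0.14 (SD, n = 3 each), a difference of 0.36 (exact permutation p = 0.2, adjusted p = 0.36 over 6 pairs). Mta3 minus Mta2 averaged 0.71 ± 0.026 in knockout and 0.46 ± 0.24 in control mice, a difference of 0.25 (exact permutation p = 0.3, adjusted p = 0.36). The knockout mice were close together here, and control mouse 1 again lay among them.

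The remaining pairs shifted less. Mta1 minus Mta2 differed between the groups by -0.11, Chd4 minus Chd3 by -0.14, Hdac2 minus Hdac1 by -0.12 and Gatad2b minus Gatad2a by -0.16 (two-sided exact permutation p = 0.2 to 0.4, adjusted p = 0.36 to 0.40 over the 6 pairs). The SDs within groups lay between 0.081 and 0.22 for these pairs, and with 3 mice each no shift could give an exact p below 0.1. A p above the threshold does not show that paralogues kept their balance. All 6 differences kept their sign without any single mouse, but 5 of them changed in size by more than 1.5 times. Mta3 minus Mta1 lay between 0.29 and 0.46 on leaving out a mouse. Mta3 minus Mta2 was 0.38 without control mouse 1 and 0.14 without control mouse 2. Chd4 minus Chd3 was -0.025 without knockout mouse 1 and -0.25 without knockout mouse 3, and Mta1 minus Mta2 was -0.21 without knockout mouse 1 and -0.061 without control mouse 1. Hdac2 minus Hdac1 lay between -0.18 without control mouse 1 and -0.078 without control mouse 3, and Gatad2b minus Gatad2a between -0.27 without knockout mouse 2 and -0.092 without knockout mouse 3.

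With all probe sets of a gene averaged, Mta3 minus Mta2 differed by 0.26 and separated the groups (two-sided exact permutation p = 0.1, the smallest possible), and Mta3 minus Mta1 differed by 0.26 (exact permutation p = 0.2). Mta1 minus Mta2 differed by -0.00039 and Hdac2 minus Hdac1 by -0.036, smaller shifts than by the brightest probe sets. The Mta1 average gives equal weight to its dim second probe set, at percentile 11.1 in knockout and 9.98 in control mice. For Mta1 the average therefore cannot show whether the shift of the brightest probe set was absent.

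**Figure D3:**
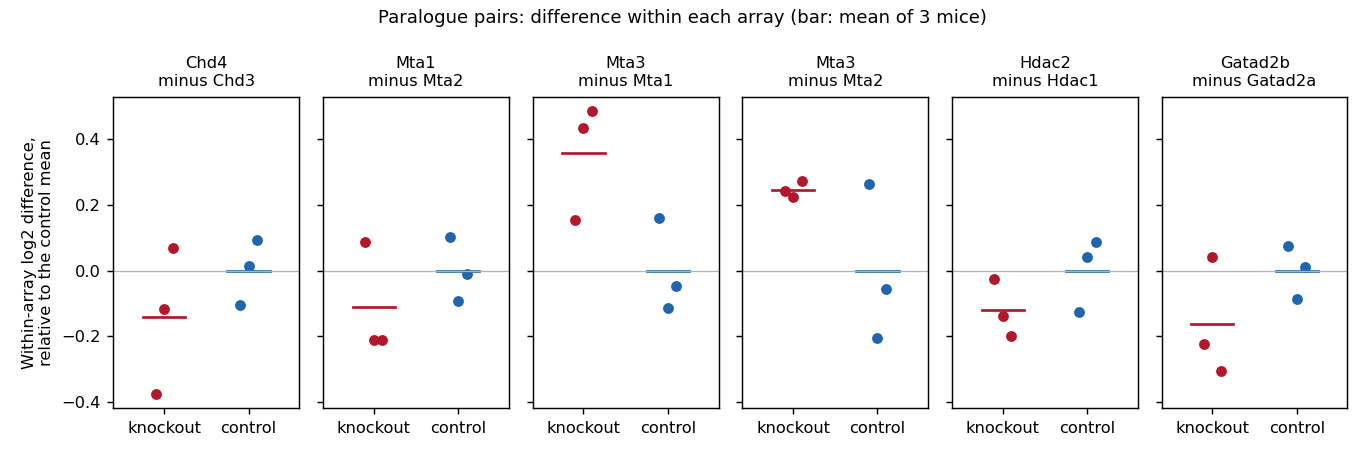
Within-array difference of log2 intensity between paralogues for 6 pairs, set to 0 at the control mean (y axis), with knockout mice in red left of control mice in blue and bars for means of 3 mice. Mta3 minus Mta1 shows the largest shift, 0.36, and in all 6 pairs at least 1 point of a group reaches the range of the other.

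The other NuRD subunits and the proteins that work with the complex were read for comparison. Genes of these lists were counted by their brightest probe sets. Counts in brackets are over all probe sets of a list. An unadjusted p under 0.05 was found in 12.4% of all probe sets on the array. Of 7 further subunits, 0 passed (limma), 1 had an unadjusted p under 0.05 (2 of 16 probe sets), and the median log2 change was 0.039. That gene was Pwwp2a, an H2A.Z-binding protein that associates with a form of NuRD, with 703 ± 81.3 in knockout and 552 ± 37.2 in control mice (log2 change 0.34, adjusted p = 0.352). Mbd2, the paralogue that replaces Mbd3, had a change of 0.13 (limma, adjusted p = 0.698), and the histone chaperones Rbbp4 and Rbbp7 had 0.18 and 0.015. Pwwp2b, a paralogue of Pwwp2a, had -0.46 (limma, adjusted p = 0.478) and read 82.1 ± 9.14 in knockout and 122 ± 42.0 in control mice. Chd5, a largely neuronal ATPase, averaged 20.9 in knockout and 20.7 in control mice.

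Of 15 factors that recruit NuRD, 0 passed, 1 had an unadjusted p under 0.05 (6 of 43 probe sets), and the median was -0.066. Zfpm1, the FOG1 cofactor of Gata1, had 4753 ± 437 in knockout and 3036 ± 374 in control mice, with groups that did not overlap, a log2 change of 0.65 ± 0.14 (SE, limma, adjusted p = 0.178). With an intensity trend and robust moderation its adjusted p was 0.0019, so that its call depends on how the variances are moderated, whereas no member was called in either fit. Bcl11a itself had -0.20 by its brightest probe set (limma, adjusted p = 0.502), and Sall1 had -0.33 at intensities of 7.22 ± 3.53 in knockout and 13.1 ± 3.17 in control mice. Of 11 genes of the Sin3 complex, which also holds Hdac1 and Hdac2, 0 passed and the median was 0.043, with Arid4b at 0.29, Brms1 at -0.26 and Brms1l at 0.19. Of 9 other histone deacetylases 0 passed, and none had an unadjusted p under 0.05 by its brightest probe set (1 of 15 probe sets). Their median was -0.12, with Hdac9 at -0.22, Hdac4 at -0.19 and Hdac5 at -0.16. Of 7 other CHD remodellers 0 passed and the median was -0.051, with Chd1 at 0.34, Chd7 at -0.16 and Chd6 at -0.17.

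Related corepressors and remodellers are set beside the members without a test of the difference. Of 10 genes of the LSD1, G9a and NCoR corepressors, 0 passed (limma), with 2 at an unadjusted p under 0.05 (4 of 26 probe sets). Their log2 changes reached from -0.21 to 0.61. The smallest p-values were those of Gfi1b, a repressor that works with LSD1, at 0.61, Gps2 at 0.35 and Rcor1 at 0.20, and the lowest change was that of the G9a gene Ehmt2. Of 17 SWI/SNF subunits 0 passed, with 3 at an unadjusted p under 0.05 (6 of 39 probe sets). Their changes reached from -0.49 for Smarcd1 to 0.43, Pbrm1 having 0.36 and the ATPase Smarca4 -0.40. The 10 NuRD members lay between -0.25 and 0.15 by their brightest probe sets.

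**Figure D4:**
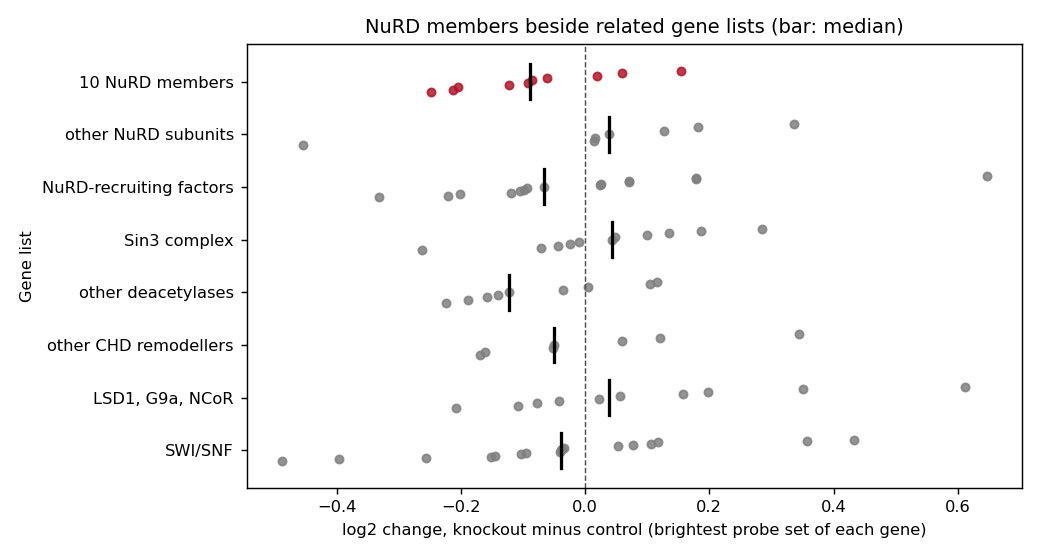
Log2 change, knockout minus control, of each gene by its brightest probe set (x axis) in the NuRD members (red) and 7 related lists (grey), with bars for the medians (y axis: list). The members lie between -0.25 and 0.15, and the genes farthest out are Zfpm1 at 0.65 and Gfi1b at 0.61 on the right and Smarcd1 at -0.49 on the left.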

How the data were processed

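Total RNA of sorted cells from 6 mice was hybridised to Affymetrix arrays, per the labels' protocols. The authors deposited an intensity on a linear scale per probe set and array; how probes were summarised, corrected for background and scaled was not given in the sources used here. Array medians were nearly equal and 775 to 874 values per array were exactly 1, none of them a member's. Of 45037 probe sets, 34945 had 1 gene symbol in the platform annotation, 932 several and 9160 none; no probe set with several symbols held a member.

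Values were turned into log2(intensity + 16), which understates changes of dim probe sets, and used without further normalization, since the arrays' log2 medians and interquartile ranges differed by at most 0.0567 and 0.0699. Knockout was compared with control over all probe sets with limma 3.58.1 in R 4.3.3 (two-sided, prior degrees of freedom 2.42), Benjamini-Hochberg adjusted over all 45037 at 0.05. No dim probe set was left out. A gene stands for its brightest single-symbol probe set by the mean over 6 arrays. Intervals are limma's 95% intervals, unadjusted, and means and SDs are of linear intensities. The labels number the mice as separate animals, and the number of mice limits the precision. The fit was tested on simulated data whose planted changes were larger than that of any member. That test cannot show whether changes of the members' size would be found.

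All members were named; from each other list, genes past the threshold and the 3 with the smallest p were named, and of the 7 further subunits others with known roles. The members and lists were chosen with earlier results of these data known. Alternatives were pseudocounts of 1 and 64, quantile normalization, centring on the median, the brighter 50% of probe sets, array weights, robust moderation with an intensity trend, the mouse number as a block, all probe sets of a gene averaged, and leaving out each mouse.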

Additional observations from a re-analysis of the deposited data

How the results depend on the processing

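No member passed the threshold under any of the 15 alternatives (limma, 358 recomputed log2 changes, lowest adjusted p = 0.0955, for Mta3 1421402_at in the brighter 50% of probe sets), and none reversed a call. Direction differed from the reported one in 29 of the 358, in 10 probe sets whose reported changes were at most 0.085 in size. For the brightest probe sets of Gatad2a and Hdac2, it differed only where all probe sets of the gene were averaged, at 0.052 and 0.024. Those averages are not refits of these probe sets. Over all probe sets the number past the threshold, 66, was 38 with a pseudocount of 1, 558 with a pseudocount of 64, 839 in the brighter 50% of probe sets, 1445 with an intensity trend and robust moderation, and 27 to 41 without a single mouse. Among the NuRD-recruiting factors 1 probe set passed with a pseudocount of 64, 2 in the brighter 50% and 2 with the trend; among SWI/SNF subunits 1 in the brighter 50% and 2 with the trend; and 1 of the LSD1, G9a and NCoR list with the trend. The cause was not tested. The members' median change of -0.089 was -0.14 after quantile normalization, -0.031 with probe sets averaged, and -0.13 to -0.060 without a single mouse. With the mouse number as a replicate block 14 probe sets passed and 0 of the members. The numbers are not shown to pair the mice: deviations of same-numbered mice correlated at -0.066, -0.0035 and -0.066. Array signal limits the dimmest member probe sets, Mta1 1440113_at and Gatad2b 1432979_at, below the array median.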
